A study of Mus musculus with 9 samples.

Results

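The centromere-proximal ends of the 19 mouse autosomes were taken as the UBTF ChIP-seq peaks whose summit lay at positions 3000000 to 5000000 of the mm9 chromosomes. This is the first 2 Mb of assembled sequence on the centromere side, since every position before 3000000 is an undetermined base on all 19 autosomes. The rule used position only and picked 31315 of the 1796909 peaks in 6 lists. The lists came from pre-B cells sorted by flow cytometry from bone marrow of C57BL/6 mice, with 2 UBTF libraries at each of 3 stages. The study's methods describe these as biological replicate experiments, and its results give individual animals as the replicates of the sorted cells. Wild-type (wt) mice were 4 to 6 weeks old. Premalignant (prem) mice of the same age and malignant (mal) mice of 10 to 20 weeks, taken once a spontaneous lymphoma had formed, carried the Eµ-Myc transgene as heterozygotes. That transgene places Myc under the immunoglobulin heavy chain enhancer, so its activity follows the B lineage. The labels give B220 high, IgM low and IgD low cells for all stages, whereas the study's methods give this for wt and prem and describe the mal cells as transformed pre-B cells positive for B220 and negative for IgM and IgD. The 3 input samples were not analysed here. The files hold no read counts, so the sequencing depth behind a peak is unknown.

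UBTF is the architectural factor of RNA polymerase I. It binds across the promoter and transcribed part of the ribosomal RNA genes (rDNA) and keeps active repeats in an open state. Mouse chromosomes are acrocentric, with the centromere and its satellite arrays close to one end, and the rDNA arrays lie next to the centromere on a subset of chromosomes. In C57BL/6 the study names chromosomes 12, 15, 18 and 19 as rDNA-bearing. The arrays themselves are not in the assembled chromosomes, so the window holds the nearest sequence that reads could be placed on.

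Regions were runs of summits less than 1000 bp apart, and the sequences shown here are of regions among the 10 with the best mean rank percentile of the 342 window regions with a summit in all 6 lists, together with the best such region of chromosome 12. Each is printed as the summit base with 100 bases on each side, 201 bases of the + strand of mm9. In the first pair of lines, capitals mark the bases at which the chromosome 6 stretch and its match on chromosome 17 differ. In the other lines, capitals mark the longest exact tandem repeat with a unit of 1 to 6 bases.
18S-like stretch chr6:3151107-3151307, + strand: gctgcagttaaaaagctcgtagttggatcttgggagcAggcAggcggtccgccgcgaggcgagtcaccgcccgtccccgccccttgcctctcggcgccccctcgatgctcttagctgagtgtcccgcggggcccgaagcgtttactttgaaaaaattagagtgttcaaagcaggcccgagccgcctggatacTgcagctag
18S-like match on chromosome 17 chr17:39983963-39984163, + strand: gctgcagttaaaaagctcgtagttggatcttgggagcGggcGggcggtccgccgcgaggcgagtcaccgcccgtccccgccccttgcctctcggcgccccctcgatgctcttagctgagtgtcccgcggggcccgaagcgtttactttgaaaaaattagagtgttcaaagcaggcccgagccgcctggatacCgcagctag
Gucy1a2 intron chr9:3533637-3533837, + strand: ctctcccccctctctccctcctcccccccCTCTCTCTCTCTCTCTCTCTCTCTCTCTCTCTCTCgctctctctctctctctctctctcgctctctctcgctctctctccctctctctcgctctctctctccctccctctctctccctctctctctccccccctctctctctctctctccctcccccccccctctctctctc
Asxl2 intron chr12:3468563-3468763, + strand: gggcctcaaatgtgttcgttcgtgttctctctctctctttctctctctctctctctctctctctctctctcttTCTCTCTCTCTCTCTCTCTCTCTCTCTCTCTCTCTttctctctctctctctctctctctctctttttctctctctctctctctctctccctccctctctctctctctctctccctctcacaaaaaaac

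The region with the best mean rank percentile was the 18S-like one on chromosome 6, with its best summit at 3151207. It led the window peaks in wt 1, wt 2, prem 1 and mal 1, but came after another region in prem 2 and mal 2. Its rank was 34 and 79 in the wt lists, 32 and 106 in the prem lists and 23 and 147 in the mal lists, where 1 is the best of 78113 to 575674 peaks. The authors mapped reads to mm9 joined to 1 copy of the rDNA repeat, and in every list the peak of rank 1 lay on that repeat. Most of the peaks above the chromosome 6 summit lay on the repeat in 3 lists (30 of 33 in wt 1, 28 of 31 in prem 1, 20 of 22 in mal 1). In the other lists they were 27 of 78 (wt 2), 29 of 105 (prem 2) and 32 of 146 (mal 2). Among autosomal peaks alone, the chromosome 6 summit was placed 4 in wt 1, 51 in wt 2, 4 in prem 1, 75 in prem 2, 3 in mal 1 and 114 in mal 2. The summit is intergenic, 198364 bp from the start of the nearest protein-coding gene, Samd9l, and its 201 bases were 61.7% GC with a median of 2 copies of each 24-base word in the assembly.

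The sequence around it matched an 18S rRNA-like stretch of chromosome 17. The bases chr6:3150770-3151670 were 98.2% identical, without a gap, to chr17:39983626-39984526, a stretch directly upstream of AY036118, for which RefSeq (GRCm38) lists Rn18s-rs5, an 18S rRNA-related pseudogene, as the neighbour. Within the 201 printed bases, the substitutions from the chromosome 17 base to the chromosome 6 base were G38A, G42A and C193T, counted from 1 at the first printed base. The 2000 bases of chromosome 17 upstream of AY036118 had 21 matches of at least 200 bp on the assembled chromosomes, itself included, and 3 of these lay in the window. Only the chromosome 6 match had a summit within 1000 bp in all 6 lists. The other window matches, chr9:3260376-3261149 at 77.8% identity and chr8:3754464-3754761 at 88.5%, each had a summit in mal 2 only, at ranks 397937 and 447583. The chromosome 17 stretch itself had no summit in any list. How reads were divided between the rDNA repeat and these matches was not tested, since the files hold no reads.

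Most of the 10 best regions were runs of alternating purine or pyrimidine pairs. A repeat of AG, or CT on the other strand, over at least 40 bp was present in 6 of the 10, 9 of the 10 had a median of at least 10 copies of their 24-base words, and none was single copy. In position, 5 were intronic and 5 intergenic, and 1 of the 10 lay on an rDNA-bearing chromosome. The Gucy1a2 region on chromosome 9, at 3533737, lay 1383 bp from the start of this gene for a soluble guanylate cyclase subunit and ranked 260 and 280 in wt, 339 and 906 in prem and 396 and 389 in mal. These 6 ranks stayed within the best 1000 peaks of every list. Another 6 regions were at Fam107b and 19264 bp from its start on chromosome 2, in Syne1 and near Rgs17 on chromosome 10, near Insr on chromosome 8, and in Gm10340 on chromosome 14. Their ranks ran from 386 to 6140.

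**Figure D1:**
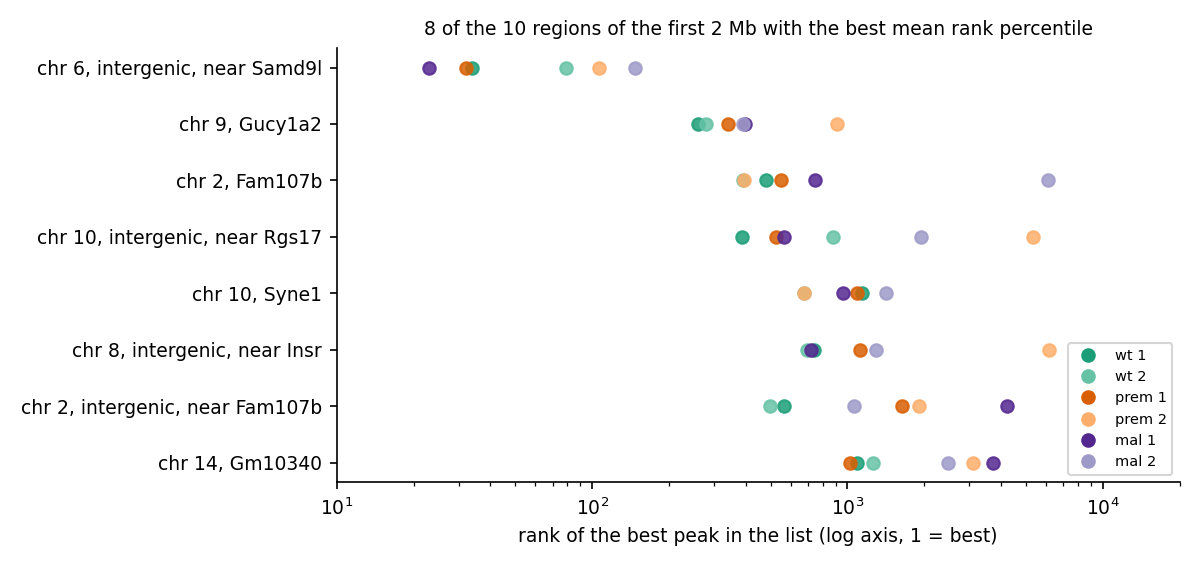
Rank of the best peak of 8 of the 10 regions in each of the 6 lists, on a log axis with 1 as the best; each point is 1 library. The 18S-like region on chromosome 6 lies between 23 and 147 in all lists, ahead of the other 7 shown. A region not shown lies ahead of it in prem 2 and mal 2.

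The best shared regions of chromosomes 12, 18 and 19 were not among the 10 best regions. On chromosome 12 the Asxl2 intron at 3468663, a run of CT printed above, ranked 1807 and 1513 in wt, 2953 and 51360 in prem and 3464 and 36997 in mal. Asxl2 encodes a Polycomb-group chromatin regulator. On chromosome 18 the best region was intergenic at 3557390, 49435 bp from the start of Bambi, single copy by its 24-base words, with ranks of 7337 and 3767 in wt, 4543 and 7631 in prem and 6996 and 3205 in mal. On chromosome 19 an intron of Aldh3b2 at 3976890 ranked 1740 and 2574 in wt, 6472 and 89943 in prem and 8143 and 3708 in mal.

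The window held 1606 and 2841 summits in the wt lists, 933 and 11382 in the prem lists and 4666 and 9887 in the mal lists. The lists themselves differed in the same order of size, from 78113 peaks in prem 1 to 575674 in prem 2, and window summits made up 1.47% and 1.64% of autosomal peaks in wt, 1.29% and 2.17% in prem and 1.83% and 1.96% in mal. Per Mb of sequence the window held 42.4 and 75.02 summits in wt, 24.6 and 301 in prem and 123 and 261 in mal. Beyond 5000000 on the same chromosomes there were 45.8 and 72.1 summits per Mb in wt, 30.3 and 218 in prem and 106 and 210 in mal.

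The density ratio, the number of window summits over the number expected from the density beyond 5000000 on the same chromosomes, was 0.925 and 1.04 in wt, 0.827 and 1.39 in prem and 1.18 and 1.26 in mal. Over all 6 libraries its mean log2 was 0.12 ± 0.28 (SD, n = 6), with 4 of 6 above 0, and it did not differ from 0 by an exact two-sided permutation test over sign changes (p = 0.344, adjusted p = 0.573 over 5 tests, smallest p the test can give 0.0312). It was 0.010 with the best 50000 peaks of each list, 0.029 with only the stretch from 5000000 to 25000000 as the reference and 0.035 with overlapping peaks merged. The number of chromosomes with a ratio above 1 was 5 and 10 of 19 in wt, 2 and 14 in prem and 13 and 13 in mal. The 3 libraries above 1.1 were those whose lists hold no narrow peak. Their narrowest peak was 680, 800 and 670 bp (prem 2, mal 1, mal 2), against 240, 250 and 260 bp in wt 1, wt 2 and prem 1. These are called the wide and the narrow lists from here on. Both wt lists are narrow and both mal lists are wide, so for this pair of stages the type of list and the stage cannot be told apart.

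**Figure D2:**
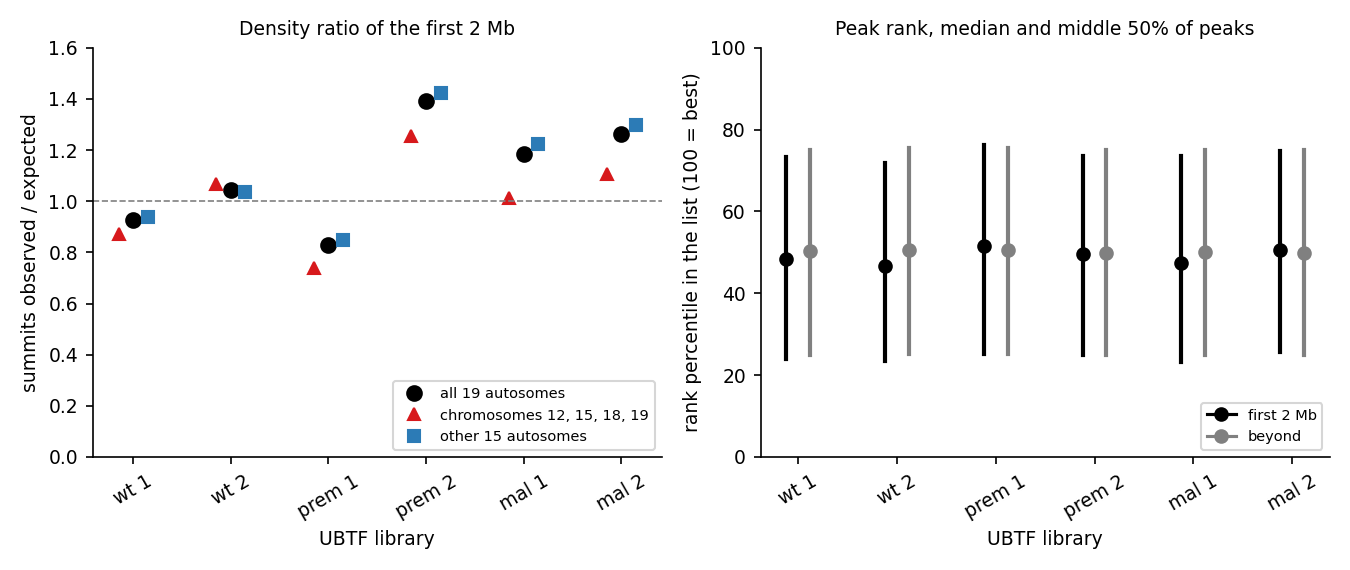
Left, the density ratio of the first 2 Mb in each library for all autosomes, for the 4 rDNA-bearing chromosomes and for the other 15, with 1 as the dashed line. Right, the median rank percentile (point) and the middle 50% of peaks (bar) in the window and beyond; the density ratio runs from 0.827 in prem 1 to 1.39 in prem 2, while the window medians stay between 46.6 and 51.6.

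Between stages, the mean log2 density ratio was higher by 0.32 in mal than in wt, by 0.13 in prem than in wt and by 0.19 in mal than in prem. With 2 libraries against 2, an exact permutation test cannot give a p below 0.333, and these differences gave 0.333, 1 and 1 (two-sided; adjusted p = 0.8, 1 and 1 over 12 stage tests). The wt and mal libraries did not overlap, whereas the prem libraries lay on both sides of all others. Within the narrow lists, prem 1 was lower than the wt mean by 0.25, which turns the direction of prem against wt. Within the wide lists, the mal mean was lower than prem 2, a log2 difference of -0.18 in place of 0.19.

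The excess in the wide lists was not confined to the first 2 Mb. In bins of 1 Mb from 2 to 20 Mb from the start of assembled sequence, all 18 bins exceeded 1 in prem 2 (1.10 to 1.49), in mal 1 (1.02 to 1.39) and in mal 2 (1.06 to 1.36). In the narrow lists the same bins lay between 0.824 and 1.01 in wt 1, 0.894 and 1.13 in wt 2 and 0.716 and 0.974 in prem 1. When the stretch from 5000000 to 25000000 served as the reference in place of the whole chromosome, mal and wt differed by -0.0022 and prem and wt by -0.0087 on the log2 scale. The bin nearest the centromere stood out most in the wide lists: the first 200 kb had ratios of 1.89 in prem 2, 1.56 in mal 1 and 1.56 in mal 2, against 0.964 in wt 1, 1.12 in wt 2 and 0.818 in prem 1. No chromosome held more than 16.8% of the summits in that bin in any list.

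**Figure D3:**
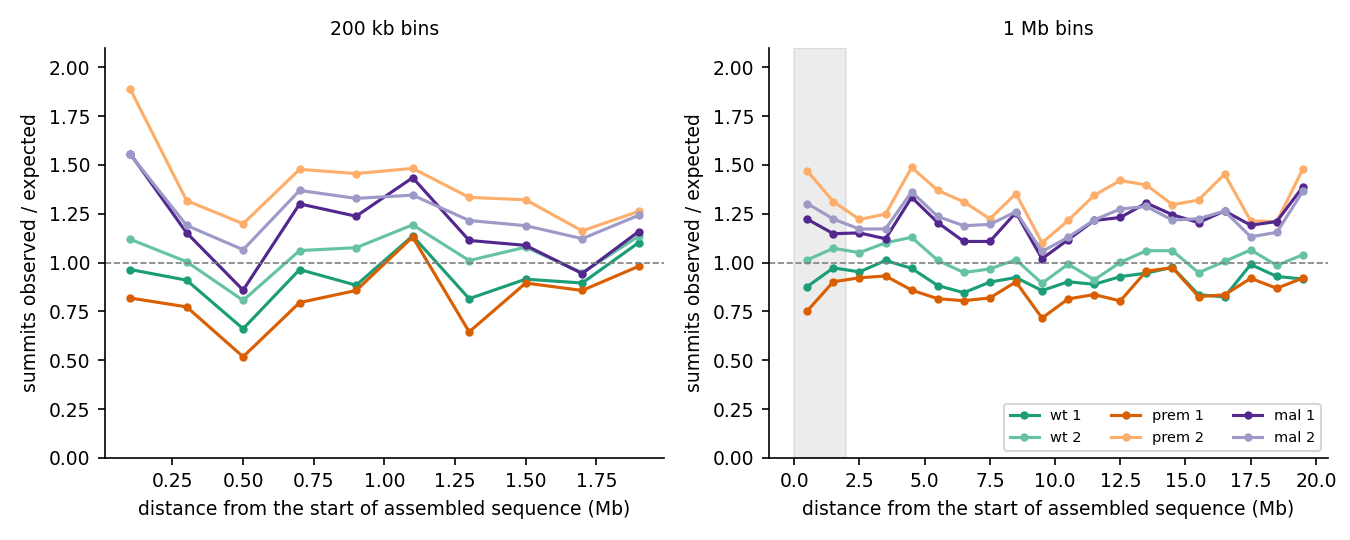
Observed over expected summits by distance from the start of assembled sequence, averaged over the 19 autosomes, in 200 kb bins (left) and 1 Mb bins (right, window shaded); each line is 1 library. Prem 2, mal 1 and mal 2 stay above 1 in all 18 bins of 1 Mb past the window, while wt 1 and prem 1 stay at or below 1.01.

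The strength of the peaks in the window was close to that beyond it. The median rank percentile by peak score, where 100 is the best of a list, was 48.3 and 46.6 in wt, 51.6 and 49.6 in prem and 47.4 and 50.6 in mal. Subtracting the median beyond 5000000 gave -1.98 and -3.92 percentile points in wt, 0.97 and -0.14 in prem and -2.59 and 0.68 in mal. The mean difference was -1.16 ± 1.96 points (SD, n = 6; exact sign-change permutation p = 0.219, adjusted p = 0.547), negative in 4 of 6. Peaks in the best 1% of their list made up 0.934% and 0.704% of window peaks in wt, 1.07% and 0.791% in prem and 0.729% and 0.779% in mal, against 0.977% to 1.03% beyond. In 5 of 6 lists the share in the window was thus the smaller. The stage differences in median rank were 3.37 points for prem minus wt, 2.00 for mal minus wt and -1.37 for mal minus prem (exact permutation p = 0.333, 0.667 and 0.667).

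At the other end of the same chromosomes, the last 2 Mb held 1689 and 2706 summits in wt, 1206 and 8437 in prem and 4407 and 8296 in mal. Against the stretch between both ends, this telomere-side end had ratios of 0.971 and 0.992 in wt, 1.07 and 1.03 in prem and 1.12 and 1.06 in mal. The window minus the telomere-side end was -0.07 and 0.07 in wt, -0.37 and 0.44 in prem and 0.09 and 0.26 in mal on the log2 scale, a mean of 0.07 ± 0.28 (SD, n = 6; exact sign-change permutation p = 0.562, adjusted p = 0.703). The telomere-side ratios spanned 0.971 to 1.12, a smaller range than the 0.829 to 1.39 of the window against the same stretch.

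Chromosomes 12, 15, 18 and 19 held 5523 of the members and the other 15 autosomes 25792. Their density ratio was 0.873 and 1.07 in wt, 0.737 and 1.25 in prem and 1.01 and 1.11 in mal. On the other autosomes it was 0.938 and 1.04 in wt, 0.849 and 1.42 in prem and 1.22 and 1.30 in mal. The rDNA-bearing windows were therefore lower in 5 of 6 libraries, by -0.10, -0.20, -0.19, -0.27 and -0.23 on the log2 scale in wt 1, prem 1, prem 2, mal 1 and mal 2, and higher by 0.04 in wt 2. The mean of -0.16 ± 0.11 (SD, n = 6) did not pass an exact sign-change permutation test (p = 0.0625, adjusted p = 0.312). With a window of 1 Mb, or with overlapping peaks merged, all 6 libraries fell on the same side (exact permutation p = 0.0312 in both, the smallest the test can give, adjusted p = 0.156). The difference shrank to -0.075 (exact permutation p = 0.156) with 5000000 to 25000000 as the reference and to -0.098 (exact permutation p = 0.0938) without chromosome 14. The mean difference was -0.22 in mal minus wt and -0.16 in prem minus wt (exact permutation p = 0.333 for each), and they turned to 0.096 and 0.0045 with that reference.

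By rank, the difference between the rDNA-bearing and other windows did not pass the test, and its sign varied between libraries and settings. The rDNA-bearing medians were 46.0 and 46.6 in wt, 56.9 and 49.0 in prem and 50.3 and 50.4 in mal, and after subtracting the medians beyond 5000000 they differed from the other chromosomes by -2.69, 0.29, 5.21, -0.89, 2.06 and -2.53 points in wt 1, wt 2, prem 1, prem 2, mal 1 and mal 2. The mean was 0.24 ± 3.02 points (SD, n = 6; exact permutation p = 0.938). The highest value was that of prem 1, which rests on 158 summits on these chromosomes. With the best 50000 peaks of each list the mean was -4.01 points (exact permutation p = 0.0938, adjusted p = 0.234).

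Among single chromosomes, chromosome 14 had the highest mean ratio, 1.80 ± 0.318 (SD, n = 6), and the only ratio above 1 in all 6 libraries. It was 1.78 and 1.77 in wt, 1.21 and 2.07 in prem and 1.93 and 2.05 in mal. Chromosome 11 had the lowest mean, 0.732, with 0.820 and 0.866 in wt, 0.442 and 0.756 in prem and 0.653 and 0.855 in mal. Chromosome 12, which is rDNA-bearing, came next at 0.757 and was the other chromosome below 1 in all 6. Its ratios were 0.659 and 0.885 in wt, 0.982 and 0.731 in prem and 0.586 and 0.700 in mal. Chromosome 9 differed most by list, with a mean of 0.859 in the narrow and 1.97 in the wide lists. On 9 of the 19 chromosomes all 3 wide lists lay above all 3 narrow lists, and on none did they all lie below. Chromosomes 13 and 19 had a lower median rank in the window than beyond in all 6 libraries, with differences of -10.998 to -0.40 points on chromosome 13 and -10.01 to -1.41 points on chromosome 19, and no chromosome had a higher one in all 6.

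**Figure D4:**
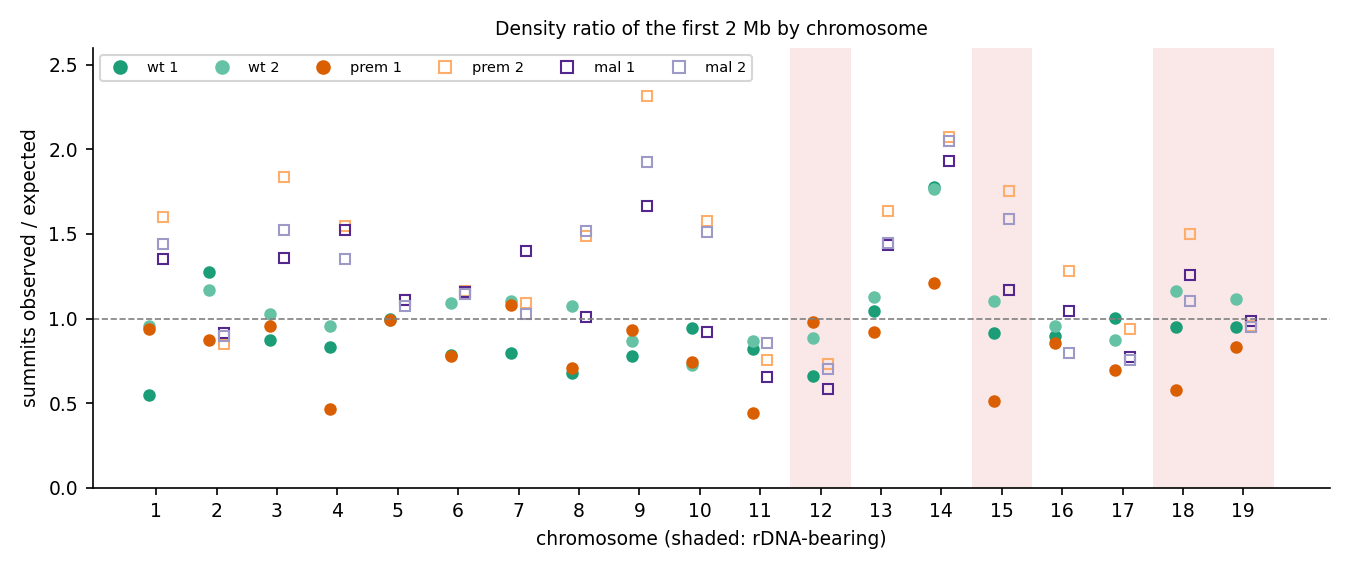
Density ratio of the first 2 Mb on each of the 19 autosomes; filled circles are wt 1, wt 2 and prem 1, open squares prem 2, mal 1 and mal 2, and shading marks the rDNA-bearing chromosomes. Chromosome 14 lies above 1 and chromosomes 11 and 12 below 1 in all 6 libraries, and the squares on chromosome 9 reach 2.31.

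The windows differed in how often their sequence recurs in the genome. On a grid of 1 position every 10 kb, the 201 bases around each position were called single copy when the median of their 24-base words occurred once in the assembly. In the window 67.7% of grid positions were single copy, against 75.1% in the adjacent 2 Mb and 82.2% in the last 2 Mb. On chromosome 14 none was, and 92.8% had at least 10 copies, whereas on chromosome 11 84.5% were single copy. Across the 19 chromosomes the share of positions with at least 10 copies went with the mean density ratio of the wide lists (Spearman 0.87, Pearson 0.66). In the narrow lists it did so only by Pearson (Spearman 0.09, Pearson 0.79), which without chromosomes 14 and 9 was -0.12 over 17 chromosomes. The mean GC of the window went the other way in the wide lists (Spearman -0.69, Pearson -0.65) and had no such relation in the narrow lists (Spearman 0.05, Pearson 0.0016). These are descriptions over chromosomes that share their libraries and mapping, and no test was made of them. The rDNA-bearing windows held fewer repeated positions on average than the others, 15.4% against 21.8% with at least 10 copies, but without chromosome 14 the others averaged 16.7%. Their mean GC was 43.2% against 41.8%. The part of either measure in the rDNA-bearing difference was not tested.

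**Figure D5:**
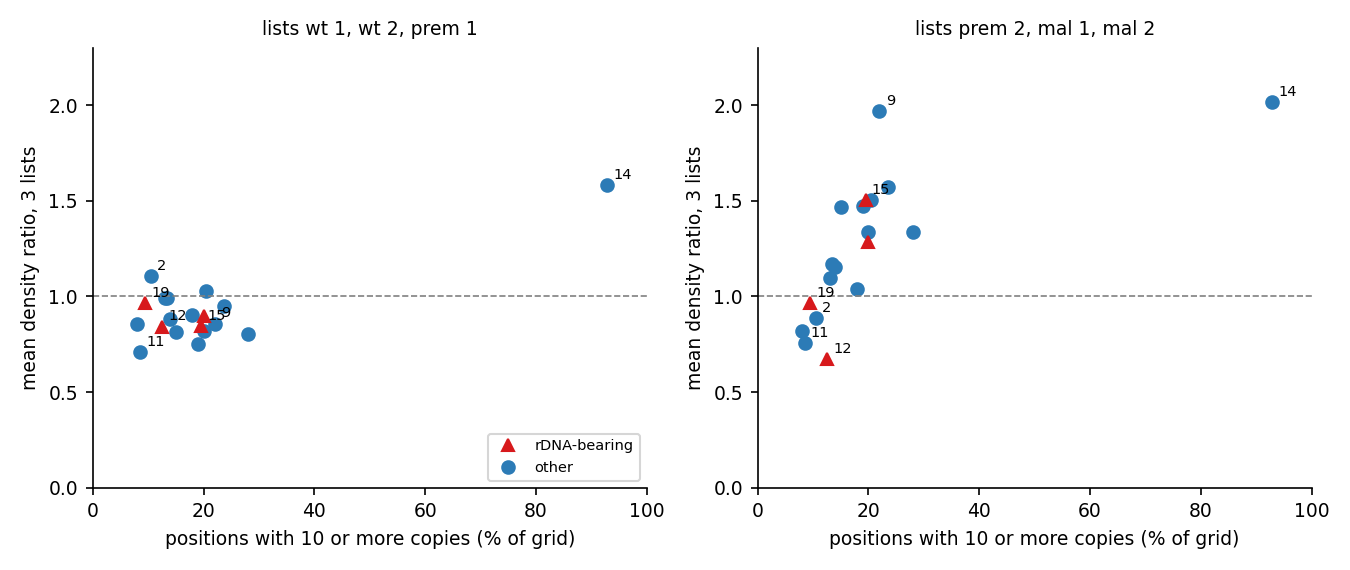
Share of grid positions in the first 2 Mb with at least 10 copies of their 24-base words against the mean density ratio, for the 3 narrow lists (left) and the 3 wide lists (right); each point is 1 chromosome, triangles are rDNA-bearing. Chromosome 14, at 92.8%, lies at 1.58 in the narrow and 2.02 in the wide lists.

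The members themselves sat on repeated sequence far more often than the grid. Single-copy summits made up 34.7% and 31.7% in wt, 27.2% and 10.8% in prem and 13.9% and 12.6% in mal. Exact tandem repeats of at least 40 bp lay within 100 bases of 46.0% and 32.8% of summits in wt and 39.0% in prem 1, but of 7.27% in prem 2, 9.71% in mal 1 and 10.1% in mal 2, with 1.98% of the grid. The narrow lists were thus the richer in tandem repeats, mostly with a unit of 2 bases, and in single-copy summits. Median GC was 46.8% and 47.8% in wt, 46.8% and 40.3% in prem and 41.3% in both mal lists, with 41.8% on the grid. In the adjacent 2 Mb the same features had nearly the same values, with tandem repeats at 48.4% and 36.1% in wt, 40.2% and 8.01% in prem and 10.3% and 10.2% in mal. Counted per grid position, the window held 0.944 and 0.971 times the summits of the adjacent 2 Mb in wt, 0.892 and 1.13 times in prem and 1.04 and 1.08 times in mal. Restricted to single-copy summits and positions, these ratios were 0.963 and 1.01, 0.999 and 1.21, and 1.11 and 1.10. Restricted to summits and positions that were not single copy, they were 0.762 and 0.772, 0.685 and 0.871, and 0.807 and 0.841, below 1 in all 6 lists. In both classes the 3 wide lists had the higher values.

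Peaks that passed a reproducibility limit between both replicates of a stage gave a sparser picture. At an irreproducible discovery rate (IDR, the estimated share of inconsistent pairs) under 0.05, the window held 324 of 24578 reproducible peaks in wt, 12 of 881 in prem and 883 of 57556 in mal. Their density ratio was 0.877 in wt, 0.916 in prem and 1.10 in mal. On the rDNA-bearing chromosomes it was 0.633, 0.331 and 0.812, and on the others 0.940, 1.09 and 1.17, with 1 set of peaks per stage and no test. The rDNA-bearing values rest on 48 peaks in wt, 1 in prem (3.02 expected) and 121 in mal. In wt, 26.2% of overlapping pairs in the window passed against 27.7% beyond, in prem 1.62% against 1.54% and in mal 23.4% against 25.5%. Of the 12 prem peaks, 10 lay in the 10 best regions, among them the 18S-like region of chromosome 6. Both selections use the ranks of the prem lists, so this overlap is in part built in.

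By position rather than by peak, 412 of 3753 window bins of 10 kb held a summit of all 6 lists, against 28775 of 239004 autosomal bins, so that such bins were 0.912 times as frequent in the window. Bins with a summit in both mal lists and none of the wt lists numbered 478, or 12.7%, against 9.36% of all bins. The reverse pattern was found in 48, or 1.28%, against 1.88%. The mal-without-wt share was 8.79% on the rDNA-bearing chromosomes and 13.8% on the others. Bins with a summit in the 3 wide and none of the 3 narrow lists made up 11.4% of the window against 7.67% of all bins, and 426 of the 478 bins with the mal-without-wt pattern were of this kind. With the best 50000 peaks of each list, 151 window bins (4.02%, against 3.34% of all bins) had the mal-without-wt pattern. The reverse pattern then held in 191 (5.09% against 5.99%), so the larger of both counts changed with lists of equal length. Of 6563 window regions, 342, or 5.21%, were shared by all 6 lists, against 6.01% of all regions.

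At gene starts in the window, the share with a UBTF summit lay above that of all starts on the rDNA-bearing chromosomes and below it on the others, in all 6 lists. With the best 50000 peaks of each list, the rDNA-bearing share was not above it in mal 2 (8.33% against 8.35%). Of 470 protein-coding genes that start in the window, a summit lay within 1000 bp of the start in 140 and 184 in wt (29.8% and 39.1%, against 33.5% and 41.4% of all 21418 autosomal starts), in 85 and 115 in prem (18.1% and 24.5%, against 19.7% and 28.7%) and in 171 and 128 in mal (36.4% and 27.2%, against 43.9% and 34.8%). The share was below that of all starts in all 6 lists, but with the best 50000 peaks of each list it was above in wt 2 (10.4% against 10.3%) and prem 1 (13.6% against 13.1%). These differences were not tested. A summit of all 6 lists was present at 25 starts, or 5.32%, against 8.35%, and 191 starts had none in any list, 40.6% against 35.1%.

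On the rDNA-bearing chromosomes, where 108 of the 470 starts lay, 44 and 59 starts had a summit in wt (40.7% and 54.6%), 26 and 33 in prem (24.1% and 30.6%) and 49 and 41 in mal (45.4% and 37.96%). All 6 shares were above those of all autosomal starts. Chromosome 19 held 64 of the 108 starts, and chromosome 14, where no grid position was single copy, held 44 of the other 362. The part of either chromosome in these shares was not tested. Over their whole length the same 4 chromosomes had 36.9% and 46.1% in wt, 20.9% and 30.2% in prem and 45.1% and 34.7% in mal, so the window shares were the higher in all 6 lists, by less than 1 percentage point in prem 2 and mal 1. This did not hold under other settings. With the best 50000 peaks of each list, the window share was the lower in mal 1 (12.04% against 12.8%) and mal 2 (8.33% against 9.70%). With summits within 500 bp of the start, it was the lower in prem 2 only (22.2% against 23.4%). On the other chromosomes 26.5% and 34.5% of 362 window starts had a summit in wt, 16.3% and 22.7% in prem and 33.7% and 24.03% in mal. A summit of all 6 lists was present at 11 of 108 starts (10.2%) on the rDNA-bearing and at 14 of 362 (3.87%) on the other chromosomes. The differences between these groups of starts were not tested.

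The 10 gene starts with the best ranks among those 25 were AU018091, Mgrn1, Fbxo4, Atad2b, Arid1b, Adcy9, Gm3625, Itsn2, Sephs1 and Ncoa1. AU018091 on chromosome 7 led, with rank percentiles of 96.9 and 98.2 in wt, 95.7 and 79.4 in prem and 97.9 and 99.6 in mal. Mgrn1, an E3 ubiquitin ligase gene on chromosome 16, followed at 93.0 and 95.5, 91.1 and 87.0, and 96.6 and 69.3. Fbxo4 on chromosome 15, which encodes an F-box protein, had 80.2 and 81.3, 76.6 and 97.2, and 97.05 and 91.8. The AAA ATPase and bromodomain gene Atad2b on chromosome 12 had 84.1 and 71.3, 91.3 and 83.5, and 96.4 and 95.6. At Arid1b on chromosome 17, a subunit of the BAF chromatin remodelling complex, the values were 95.8 and 94.6, 46.4 and 84.9, and 99.6 and 92.6. Gm3625 and Itsn2 start next to each other in opposite directions on chromosome 12 and share the same summits. Sephs1 spanned the widest range, from 2.64 in prem 1 to 99.4 in mal 2. The rDNA-bearing chromosomes 12 and 15 held 5 of these 10 starts, Gm3625 and Itsn2 among them, and the rDNA-bearing chromosomes held 11 of the 25.

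A list of 26 genes near these chromosome ends, chosen for their known roles and their place in the assembly, had 24 starts in the window. Of these, 4 had a summit in all 6 lists (Adcy9, an adenylyl cyclase gene; Tcea1, a transcription elongation factor gene; Dtnb; and Dnmt3a, a de novo DNA methyltransferase gene), and 4 had none in any list (Sox17, Pomc, Dnase1 and Rps6kb2). Dnmt3a had rank percentiles of 34.9 and 82.9 in wt, 40.4 and 94.96 in prem and 46.8 and 75.2 in mal, with the stages overlapping. The histone acetyltransferase gene Crebbp had 55.6 and 81.7 in wt, 82.1 in prem 2 and 77.0 and 96.1 in mal, with no summit in prem 1. Xkr4 and Rp1 on chromosome 1 had a summit in prem 2 and mal 2 only, the longest lists. By list, 12 and 16 of the 24 starts had a summit in wt (50% and 66.7%, against 33.5% and 41.4% of all autosomal starts), 9 and 14 in prem (37.5% and 58.3%, against 19.7% and 28.7%) and 15 and 13 in mal (62.5% and 54.2%, against 43.9% and 34.8%). The 4 starts in all 6 lists were 16.7% of the list, against 8.35%. The genes were chosen with earlier results of these data known, so these shares are a description.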

How the data were processed

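UBTF ChIP-seq peaks of 6 libraries were analysed, 2 each from wt, prem and mal pre-B cells. Paired reads had been placed by the authors with bowtie2 on mm9 joined to 1 copy of the rDNA repeat, Picard had been used against duplicates, and SPP had called the peaks of each library, without a filter on reproducibility. The submitters' processing notes name CASAVA 1.8.2, Bowtie and Picard 1.110. The deposited peak score is not scaled between libraries and was used only for ranks within a list, and the deposited p-value column holds a false discovery rate on a linear scale. Read depth is not in these files.

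Densities were computed over bases other than N of the mm9 assembly (NCBIM37), genes were taken from GENCODE M1, and sequence matches were found with BLAST 2.17.0. RefSeq names (GRCm38) served for 1 neighbouring gene only. The library was the replicate: 5 measures were tested over 6 libraries by all 64 sign changes and 12 stage differences by exact permutation of 2 against 2 libraries, with Benjamini-Hochberg adjustment within each family. IDR was fitted as a Gaussian copula mixture of 2 components to peaks paired by overlap. Scripts were run in Python 3.11.15 and tested on simulated data.

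Named regions were the 10 with the best mean rank percentile among those with all 6 lists, and the best such region of each rDNA-bearing chromosome. Named genes were the 10 starts with a summit in the most lists, ties by rank, and a fixed list of 26. The values and sequences of 2 of the 10 best-ranked regions are not reported here. The members and lists were chosen with earlier results of these data known. The alternatives on the window, the reference stretch, peak filters and libraries are described at the end, and the division by peak width and the single-copy ratio were chosen after seeing the data.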

Additional observations from a re-analysis of the deposited data

Results flagged for a closer look

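On 4 chromosomes the libraries of one stage all lay above a density ratio of 1 and those of another all lay below it, which was not tested as a difference between stages. The log2 ratio was higher in mal than in wt by 0.95 on chromosome 1, 0.69 on chromosome 4 and 1.12 on chromosome 9. On chromosome 2 the wt libraries were the ones above 1, with log2 differences of -0.43 for mal minus wt and -0.50 for prem minus wt. On chromosomes 1, 4 and 9 the prem 2 library lay with mal and prem 1 with wt, as the peak widths of the lists do.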

How the results depend on the processing

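The 17 tested results had 241 values under other settings: 206 kept their direction and 35 turned it. The cause of the turns was not tested. No adjusted p was under 0.05, which only tests over 6 libraries could reach. The mean density ratio, the rDNA-bearing density difference and the mean rank difference turned under none of the alternatives except that the first was -0.11 in the narrow lists alone and the last 0.083 with overlapping peaks merged. Their size was less stable, as the first fell to 0.010 with the best 50000 peaks, 0.029 with 5000000 to 25000000 as the reference, 0.035 with overlapping peaks merged and 0.071 without chromosome 14, and the second to -0.075 with that reference and -0.098 without chromosome 14. With a window ending at 4000000, the rDNA-bearing density difference of prem minus wt became 0.0088, and the rDNA-bearing rank differences became -0.63 (prem minus wt) and -1.84 (mal minus wt). With 5000000 to 25000000 as the reference, the rDNA-bearing rank difference was -1.13, the density ratio by stage -0.0087 (prem minus wt) and -0.0022 (mal minus wt), the rank difference by stage -0.10 and -2.29 for the same pairs, the rDNA-bearing density difference by stage 0.0045 (prem minus wt), 0.092 (mal minus prem) and 0.096 (mal minus wt), and the rDNA-bearing rank difference 1.49 (mal minus prem). With the best 50000 peaks of each list, the rDNA-bearing rank difference was -4.01, the rDNA-bearing density difference of prem minus wt 0.092 and the rDNA-bearing rank difference of mal minus prem 3.79. With overlapping peaks merged, the rDNA-bearing rank difference was -0.59 over all libraries and 0.58 for mal minus prem. With the median over chromosomes, it was -0.76, and the rDNA-bearing density difference of mal minus prem 0.046. Within the narrow lists the density ratio of prem minus wt was -0.25 and the proximal minus distal difference -0.12, and within the wide lists the density ratio of mal minus prem was -0.18 and the rDNA-bearing rank differences -0.45 over libraries and 0.66 for mal minus prem.

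Leaving out 1 library at a time gave ranges of 0.051 to 0.20 for the mean log2 density ratio, -0.20 to -0.14 for the rDNA-bearing density difference, -1.59 to -0.61 for the mean rank difference, -0.75 to 0.83 for the rDNA-bearing rank difference (turned without prem 1 or mal 1) and -0.0045 to 0.16 for the proximal minus distal difference (turned without prem 2). By stage, the density ratio ranged from -0.25 to 0.50 for prem minus wt (turned without prem 2) and from -0.18 to 0.56 for mal minus prem (turned without prem 1). The rank difference ranged from 0.36 to 3.63 for mal minus wt and from -3.00 to 0.26 for mal minus prem (turned without mal 1), the rDNA-bearing density difference from -0.23 to -0.09 for prem minus wt, and the rDNA-bearing rank difference from -1.33 to 3.27 for mal minus wt (turned without wt 1 or mal 1) and from -5.44 to 0.66 for mal minus prem (turned without prem 1).

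With the replicate number as a block, the mean log2 density ratio stayed at 0.12 with an exact permutation p of 1, and no block test could give a p below 0.5. The block changed no call, and with that limit it could not. The correlations of deviations between same-numbered libraries were 0.018, 0.302 and -0.082. Replicate 2 had the higher density ratio and the longer list at each stage. Whether same-numbered libraries shared a batch was not tested. At an IDR under 0.01 the window held 198 wt, 7 prem and 163 mal peaks, with a mal density ratio of 1.01, and with summits within 200 bp it held 52 mal peaks. With the best 50000 peaks, the share of window bins over that of all bins was 0.709 for all 6 lists and 1.21 for mal without wt.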
